A study of Homo sapiens with 6 samples.

Results

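Proteases that cut the matrix, plasma proteins and each other are held in check by a few families of inhibitor proteins, and 4 of these families were followed here in A673 cells with and without the propeptide of lysyl oxidase (LOX-PP). The genes were chosen by name alone, with no measured value in the rule: A2M, its relative PZP, the tissue inhibitors of metalloproteinases TIMP1 to TIMP4, the cystatins CST1 to CST7 and each gene whose symbol starts with SERPIN apart from the collagen chaperone SERPINH1. CST4 had no probe matched to it. This gave 53 probes of 47 genes, out of 50599 gene probes on the array, of which 28174 were matched to 20503 named genes. The families themselves were proposed with the log2 changes of this same comparison known, so the calls and counts given for them describe these arrays and are not independent evidence.

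A673 is an Ewing sarcoma cell line driven by the EWS/FLI1 fusion protein, and lysyl oxidase is a matrix enzyme that is secreted as a proenzyme and cut into an active part and the propeptide. All 6 samples came from A673/TR cells, which carry the tetracycline repressor, so that a gene under a repressed promoter is switched on by doxycycline. A673/TR/empty cells had been infected with an empty lentiviral vector and A673/TR/LOX-PP cells with the same vector carrying the LOX-PP cDNA, and stable zeocin-resistant clones had been selected in each case. The labels give doxycycline at 1 uM for 72 h for every sample, controls included, while the wording of the study's array methods can be read as giving the drug to both groups or to the LOX-PP cells alone, so whether the controls received it is not settled here. RNA from 3 separate experiments per group was hybridised to 1-colour arrays. The number of clones behind each group is not stated, and a difference between clones cannot be told apart from an effect of LOX-PP.

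Values are log2 signals relative to the 75th percentile of their own array. A change is the mean of the 3 LOX-PP arrays minus that of the 3 empty-vector arrays, and it is given relative to the median change of all 32647 probes tested, which was 0.13 on the log2 scale. A probe was counted as well above background on an array where at least 1 of its spots was. It was tested where this held on at least 3 of the 6 arrays, and called where limma's Benjamini-Hochberg adjusted p over all those probes was under 0.05. The p-value belongs to the difference before the median was taken off. In bulk RNA, fewer cells of a type and less RNA per cell cannot be told apart. The level of one probe is not set against that of another, since probes differ in how brightly they report. How many of all tested probes have groups that do not overlap was not counted. A lack of overlap is therefore given as a description of the arrays only.

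The arrays of a group correlated at 0.953 to 0.994 over probes and those of different groups at 0.934 to 0.964. Spots well above background made up 56.9% to 74.8% of each array, and the net signal of the negative controls ran from 64.4 on the first LOX-PP array to 575 on the second. The first LOX-PP array was alone on 1 slide and scan, and the remaining 5 lay together on another. All 10 Ewing sarcoma markers checked were well above background on all 6 arrays, with no call among them. The LOX probe read -0.09, 0.36 and 0.11 with empty vector and -0.12, -0.68 and -1.29 with LOX-PP, a relative change of -0.95 ± 0.33 (SE, limma adjusted p = 0.217). Its level was thus no higher in the cells labelled LOX-PP. Whether that probe lies inside the propeptide cDNA is not known here, so the directions below rest on the labels.

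The inhibitors act in different ways. Alpha-2-macroglobulin, the product of A2M, is a very large secreted protein that closes around a protease once the protease cuts its bait region, and the complex is then taken up by the receptor LRP1. TIMPs sit in the active site of matrix metalloproteinases, and cystatins block papain-like cysteine proteases such as the cathepsins. Serpins offer a reactive loop as a substrate and lock the protease in a covalent complex when it is cut. They are divided into clades: clade A holds plasma proteins made mostly by the liver, clade B holds proteins that stay mostly inside the cell, and several serpins inhibit nothing.

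The clade B genes lie in clusters on chromosomes 6 and 18, and all 3 called serpins belonged to them. Their promoters are shown because they are the sequences directly before the called genes, together with that of SERPINB4, the close copy of SERPINB3. RefSeq promoters (GRCh38.p14) were found for 32 of the 47 genes. A2M, the called gene that is not a serpin, was not among them. Each line holds the 250 bases before the start, 5′ to 3′ on the strand of the gene, from SERPINB9 (chr6:2903310-2903559, minus strand), SERPINB3 (chr18:63661894-63662143, minus strand), SERPINB4 (chr18:63644257-63644506, minus strand) and SERPINB5 (chr18:63476708-63476957, plus strand). Capitals mark a match to the TATA motif (TATAAA) in SERPINB9, and in SERPINB3 and SERPINB4 the 3 bases by which that pair differs. In SERPINB5 they mark a match to a loose AP-1-type pattern (TGANTCA), in which N can be any base.
SERPINB9: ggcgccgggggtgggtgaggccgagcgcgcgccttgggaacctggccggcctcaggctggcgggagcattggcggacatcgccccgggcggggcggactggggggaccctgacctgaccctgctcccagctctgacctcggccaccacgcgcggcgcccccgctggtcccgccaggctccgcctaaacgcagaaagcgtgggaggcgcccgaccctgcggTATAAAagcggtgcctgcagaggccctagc
SERPINB3: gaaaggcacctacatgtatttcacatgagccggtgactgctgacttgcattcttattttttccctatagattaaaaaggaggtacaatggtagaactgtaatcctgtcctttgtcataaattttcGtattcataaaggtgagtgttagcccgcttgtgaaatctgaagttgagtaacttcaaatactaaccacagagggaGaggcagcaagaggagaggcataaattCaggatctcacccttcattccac
SERPINB4: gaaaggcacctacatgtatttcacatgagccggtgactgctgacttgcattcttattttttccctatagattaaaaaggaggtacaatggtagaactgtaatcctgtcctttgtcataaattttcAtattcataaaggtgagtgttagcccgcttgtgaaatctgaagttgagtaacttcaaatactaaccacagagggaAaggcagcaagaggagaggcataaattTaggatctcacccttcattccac
SERPINB5: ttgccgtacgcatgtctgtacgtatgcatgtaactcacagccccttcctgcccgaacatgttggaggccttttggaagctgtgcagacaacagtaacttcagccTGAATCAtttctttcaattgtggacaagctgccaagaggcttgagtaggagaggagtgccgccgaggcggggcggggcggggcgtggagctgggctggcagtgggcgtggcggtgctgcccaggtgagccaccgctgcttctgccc

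The windows of SERPINB3 and SERPINB4 were the same at 247 of 250 bases (98.8%), whereas every other pair of the 4 was identical at 42.4% to 47.1% of the aligned columns. The TATAAA of SERPINB9 begins 30 bases before the start, and TATAAA was present on either strand in 5 of the 32 promoters (15.6%) and in 11.1% of the 27305 promoters of the table. The TGAATCA of SERPINB5 begins 146 bases before the start, and TGANTCA was present in 7 of the 32 (21.9%) and in 6.60% of all. The STAT-type motif TTCNNNGAA was present in 8 of the 32, none of them one of the 4 printed here, and in 6.78% of all. GGAAGGAA, a short form of the repeat bound by EWS/FLI1, was present in 1 of the 32, that of TIMP1, and in 2.99% of all. The motifs were searched on both strands and do not overlap in the windows printed. Such matches are a description of letters in these windows and not of binding.

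Of the 53 probes, 37 probes of 34 genes were tested, and 21 probes of 18 genes were well above background on all 6 arrays. Another 10 probes were above background on none. Of the 37 tested probes, 4 were called (10.8%), beside 5.66% of all probes tested. Of these, 3 were higher on the LOX-PP arrays, where 3.31% of all tested probes were called higher, and 1 was lower, where 2.36% were called lower. They were A2M, SERPINB3 and SERPINB5 on the higher side and SERPINB9 on the lower side. The other 30 tested genes had relative changes from -0.99 to 1.12, and 27 of the 34 changed by less than 1 on the log2 scale. With 1 probe per gene, 18 of the 34 genes lay above and 16 below the median of all probes. Of all 16601 tested genes, 43.5% lay above it. The median relative change was 0.07 for the 34 genes, beside -0.09 over all tested genes.

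**Figure D1:**
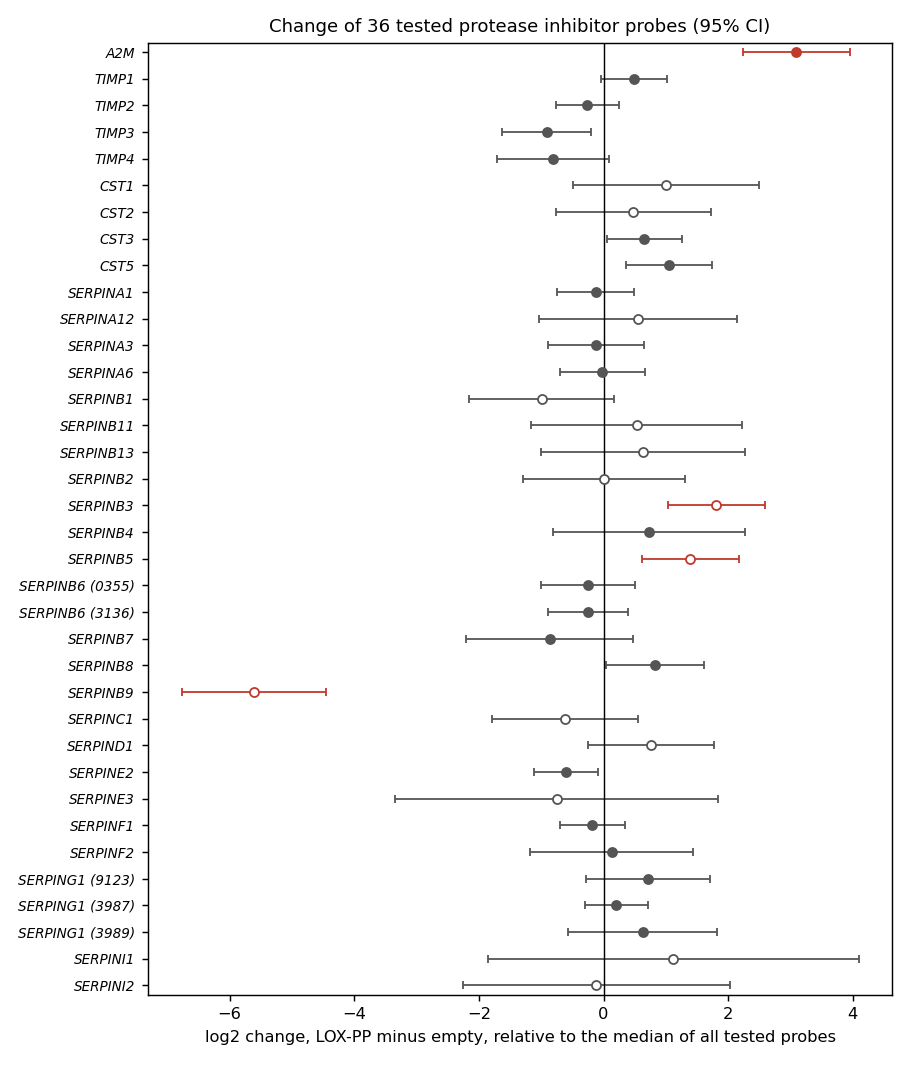
Change on the log2 scale of 36 tested probes, LOX-PP minus empty vector and relative to the median of all tested probes, with its 95% confidence interval from limma. Red marks the 4 called probes, filled points are probes well above background on all 6 arrays, and the last 4 characters of the probe name tell apart the probes of one gene. SERPINB9 lies far to the left at -5.61 and A2M to the right at 3.10, while most intervals include 0.

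A2M, on chromosome 12, was higher in the LOX-PP cells. Its probe is spotted 10 times on the array, and the mean over spots read -4.88, -5.18 and -4.45 on the empty-vector arrays against -1.60, -1.01 and -2.23 on the LOX-PP arrays. The groups do not overlap, and the lowest LOX-PP array lies more than 2 log2 units above the highest empty-vector array. The relative change was 3.10 ± 0.36 (SE, limma adjusted p = 0.00524), and 2.16 with normexp background correction. In the empty-vector cells the signal was close to background: of the spots not set aside as outliers, 9 of 9, 7 of 8 and 1 of 10 were well above it on the 3 arrays. On the LOX-PP arrays all of them were, 7 of 7, 10 of 10 and 10 of 10. The call held in 14 of 15 alternative settings, with relative changes up to 3.40, and was lost with the methods' t-test (adjusted p = 0.059). PZP, the other alpha-2-macroglobulin, known as pregnancy zone protein, was above background on no array and was not tested.

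SERPINB9, on chromosome 6, was lower in the LOX-PP cells, with the largest change of the 37 tested probes. It encodes the inhibitor of granzyme B that protects cells from the contents of cytotoxic granules. Its probe read -0.80, -0.78 and -1.93 on the empty-vector arrays against -7.47, -5.88 and -6.61 on the LOX-PP arrays. It was well above background on all 3 empty-vector arrays and on none of the LOX-PP arrays, so that the lower level is poorly known. As measured, the relative change was -5.61 ± 0.49 (SE, limma adjusted p = 0.0024). Each LOX-PP array was also set at its weakest signal well above background, or at the probe's own signal where that was higher. The level was then 29.7-fold lower, before the median was taken off. That weakest signal is not a detection limit, so the fold is not a bound. On the second LOX-PP array it was -4.81, yet SERPINB3 at -3.52 was not well above background there. The probe entered the test through the empty-vector arrays alone, so the call is no more than a description. The size depended on how low signals were treated: the relative change was -3.77 with a common floor under all arrays and -3.51 with normexp background correction, and it ranged from -6.06 to -3.51 over the 14 alternative settings in which the probe could be tested.

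SERPINB3 and SERPINB5, on chromosome 18, were called higher at signals close to background. SERPINB3, also known as squamous cell carcinoma antigen, inhibits cysteine proteases of the cathepsin L kind. It read -5.39, -5.37 and -5.95 on the empty-vector arrays against -4.20, -3.52 and -3.17 on the LOX-PP arrays, a relative change of 1.81 ± 0.33 (SE, limma adjusted p = 0.0223). It was well above background on 1 of 3 empty-vector and 2 of 3 LOX-PP arrays. SERPINB5, or maspin, is found in normal breast and other epithelia and does not inhibit proteases in the way its relatives do. It read -5.03, -5.28 and -5.50 on the empty-vector arrays against -4.11, -4.06 and -3.10 on the LOX-PP arrays, a relative change of 1.39 ± 0.33 (SE, limma adjusted p = 0.0469). It was well above background on 2 of 3 arrays in each group. In both genes every LOX-PP array lies above every empty-vector array.

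Each of these 2 calls held in only 3 of 14 alternative settings. Those were the processed values, which nearly repeat the values used here, the slide as a block and leaving out the first LOX-PP array. The last 2 are the same fit. Both were lost with quantile normalization, where the adjusted p was 0.117 for SERPINB3 and 0.33 for SERPINB5, with a common floor under all arrays, where it was 0.0647 and 0.1, and when any one array other than the first LOX-PP array was left out. Without the first empty-vector array, for example, the adjusted p was 0.0985 for SERPINB3 and 0.155 for SERPINB5. Both changes stayed above 0 in each of the settings, from 1.03 to 2.06 for SERPINB3 and from 0.76 to 1.62 for SERPINB5.

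**Figure D2:**
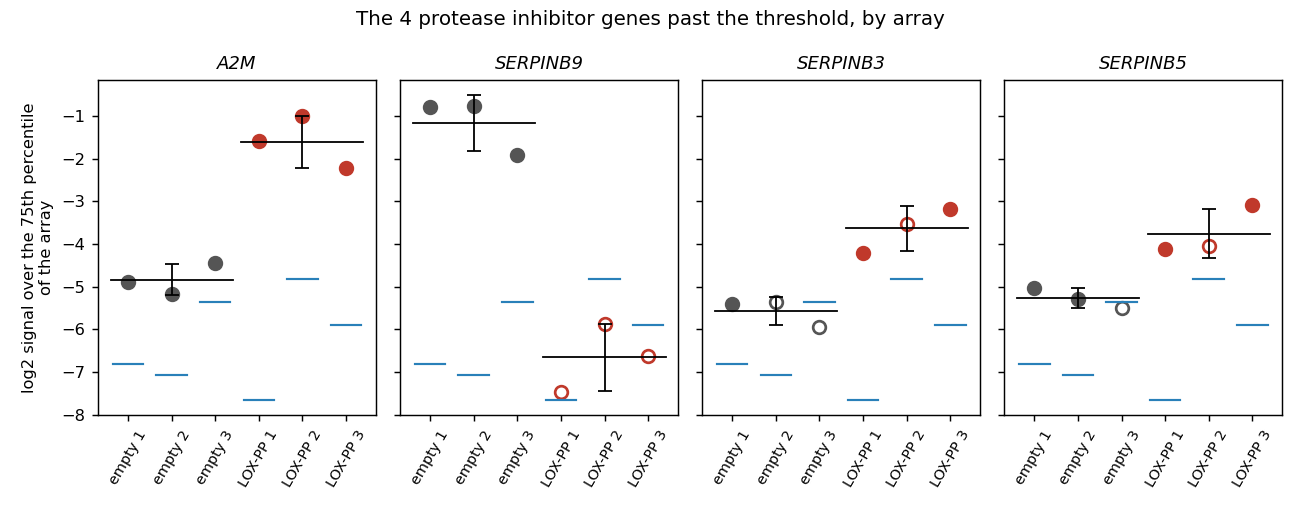
Log2 signal relative to the 75th percentile of the array for the 4 called genes on each of the 6 arrays, empty vector in grey and LOX-PP in red. Filled points were well above background on that array and open points were not, the long black line and its bar give the mean and SD of each group (n = 3), and the blue line gives the weakest signal well above background on that array. The LOX-PP points of SERPINB9 are all open, and SERPINB3 and SERPINB5 hold open points in both groups.

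The other 8 tested genes of clade B were not called. SERPINB4, also an antigen of squamous cells and nearly the same in sequence as SERPINB3, read -4.91, -5.42 and -3.47 on the empty-vector arrays against -4.81, -2.82 and -3.60 on the LOX-PP arrays, and the groups overlap (relative change 0.73 ± 0.65, SE, limma adjusted p = 0.501). Whether the probes of this pair also pick up each other's transcript was not tested, so the division of signal between SERPINB3 and SERPINB4 is uncertain. SERPINB8, an inhibitor of furin, had group means of -0.83 ± 0.33 and 0.12 ± 0.53 (SD, n = 3 each) and a relative change of 0.82 (limma adjusted p = 0.163), with no overlap between the groups. SERPINB7 changed by -0.86 and SERPINB2, an inhibitor of urokinase, by 0.00, and neither passed the test. SERPINB11 and SERPINB13 had relative changes of 0.53 and 0.63. SERPINB11 has a second probe, which was not above background on any array.

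On chromosome 6 the neighbours of SERPINB9 were not called. SERPINB6, an intracellular inhibitor found in many tissues, has 2 probes, which gave -0.25 each (limma adjusted p = 0.861 and 0.833) and were above background on all 6 arrays. SERPINB1, an inhibitor of neutrophil elastase, had a relative change of -0.99 ± 0.49 (SE, limma adjusted p = 0.362), and of -0.45 with normexp background correction. It was well above background on only 2 arrays of each group. Its LOX-PP arrays were spread out, with an SD of 1.02 beside 0.16 for the empty-vector arrays. The pseudogene SERPINB9P1 was above background on no array. The difference between SERPINB9 and its neighbours was not tested. SERPINB10 and SERPINB12, of the cluster on chromosome 18, were above background on no array either.

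The TIMPs were measured on all 6 arrays, and none of the 4 was called. TIMP1 read 4.78, 4.64 and 4.90 on the empty-vector arrays against 5.53, 5.12 and 5.53 on the LOX-PP arrays, all 3 of the latter being higher (relative change 0.49 ± 0.22, SE, limma adjusted p = 0.172). TIMP2, which also takes part in the activation of MMP2, read 4.66, 4.94 and 4.58 against 4.70, 4.47 and 4.60, a relative change of -0.26 ± 0.21 (SE, limma adjusted p = 0.76). TIMP3, the member that stays bound to the matrix, read 2.90, 2.94 and 2.95 against 1.77, 2.76 and 1.90, a relative change of -0.91 ± 0.30 (SE, limma adjusted p = 0.196). TIMP4 read 1.80, 1.83 and 1.72 against 1.65, 1.39 and 0.25, a relative change of -0.82 ± 0.38 (SE, limma adjusted p = 0.345).

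TIMP3 and TIMP4 thus had lower values on every LOX-PP array, but with a wide spread in that group, an SD of 0.54 and 0.75 beside 0.02 and 0.06 among the empty-vector arrays. Of TIMP3 the second LOX-PP array stayed near the controls, and of TIMP4 the third LOX-PP array lay well below the other two. The signs of the 4 changes were the same in each of the 15 alternative settings, with ranges of 0.32 to 0.71 for TIMP1, -0.44 to -0.09 for TIMP2, -1.14 to -0.64 for TIMP3 and -1.13 to -0.39 for TIMP4. None of them was called in any.

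The cystatins on the array are 6 genes, of which 4 were tested and none was called. CST3 encodes cystatin C, the main secreted inhibitor of cathepsins in body fluids. It read 3.46, 2.94 and 3.45 on the empty-vector arrays against 4.28, 3.79 and 4.12 on the LOX-PP arrays, a relative change of 0.65 ± 0.26 (SE, limma adjusted p = 0.139). CST5, or cystatin D, is best known from saliva and read 0.17, -0.26 and 0.50 against 1.56, 0.94 and 1.45, a relative change of 1.05 ± 0.29 (SE, limma adjusted p = 0.0681). For both genes each LOX-PP array was above each empty-vector array. CST5 passed the threshold in 1 of 15 alternative settings, that in which only probes above background on all 6 arrays were tested (adjusted p = 0.0439).

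The salivary cystatins CST1 and CST2 were near background, with relative changes of 1.00 ± 0.63 and 0.48 ± 0.52 (SE), and their groups overlap. CST6, called cystatin M, was above background on 2 empty-vector arrays and on no LOX-PP array, and CST7, a cystatin of immune cells, on none at all. Neither was tested.

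Among the secreted serpins, SERPINE2 is protease nexin 1, an inhibitor of thrombin and urokinase. It read 4.65, 4.88 and 4.80 on the empty-vector arrays against 4.48, 4.37 and 4.06 on the LOX-PP arrays, lower on every LOX-PP array, with a relative change of -0.60 ± 0.22 (SE, limma adjusted p = 0.264). The 95% confidence interval of this relative change ran from -1.12 to -0.09. Before the median was taken off, the difference was -0.48 (limma unadjusted p = 0.0651). SERPINE3 had a relative change of -0.75 with an interval from -3.35 to 1.84, too wide to give a direction.

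SERPINF1, which encodes pigment epithelium-derived factor, a secreted inhibitor of blood vessel growth without protease inhibiting activity, read 4.02, 3.76 and 3.82 on the empty-vector arrays against 4.0, 3.85 and 3.58 on the LOX-PP arrays. The relative change was -0.18 ± 0.22 (SE, limma adjusted p = 0.92). SERPINF2, the plasma inhibitor of plasmin, changed by 0.13 ± 0.55 (SE). SERPING1, the inhibitor of complement protease C1, had 3 probes with changes of 0.20, 0.71 and 0.63, each on the higher side and none called, and they were above background on all 6 arrays. The brightest of the 3 had group means of -2.02 ± 0.09 and -1.69 ± 0.21 (SD, n = 3 each) that did not overlap (limma adjusted p = 0.42).

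**Figure D3:**
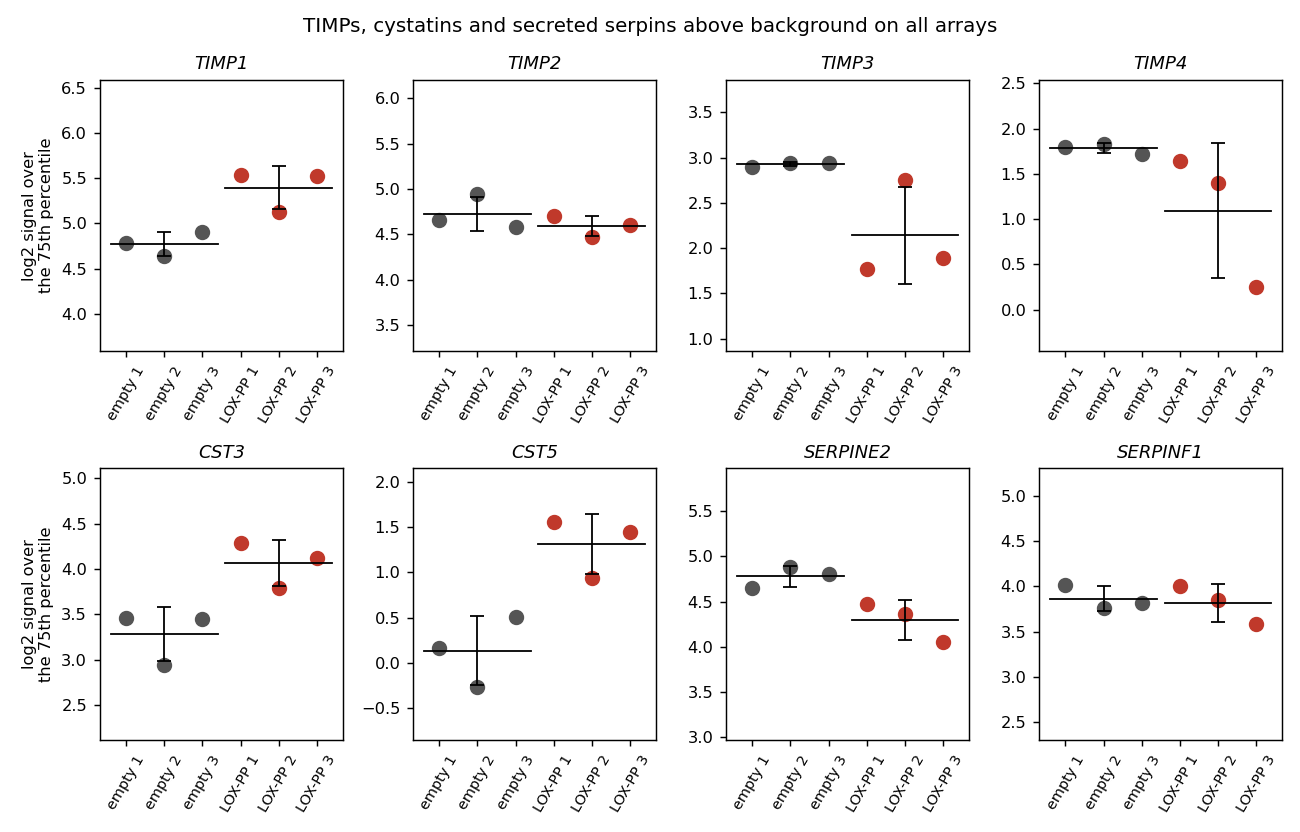
Log2 signal relative to the 75th percentile of the array on each of the 6 arrays for the 4 TIMPs, CST3, CST5, SERPINE2 and SERPINF1, empty vector in grey and LOX-PP in red, with the mean and SD of each group (n = 3). Each panel has its own axis range, and none of the 8 genes was called. The LOX-PP points lie above the empty-vector points for TIMP1, CST3 and CST5, below them for TIMP3, TIMP4 and SERPINE2, and among them for TIMP2 and SERPINF1. Such separation was not counted over all tested probes.

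SERPINI1, or neuroserpin, is the inhibitor of tissue plasminogen activator in the nervous system. It read -8.23, -3.22 and -6.11 on the empty-vector arrays against -4.60, -3.31 and -5.93 on the LOX-PP arrays. It was above background on 1 and 2 arrays of the groups, and the spread between arrays of one group exceeded the difference between groups (relative change 1.12 ± 1.26, SE, limma adjusted p = 0.62). SERPINI2 changed by -0.12 ± 0.90 (SE). The liver serpins SERPINC1, or antithrombin, and SERPIND1, or heparin cofactor, read near background with changes of -0.62 and 0.76 (limma adjusted p = 0.617 and 0.288).

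Of the 11 clade A genes on the array, 4 were tested and none was called. SERPINA1, the antitrypsin of plasma, changed by -0.13 ± 0.26, SERPINA3, the antichymotrypsin, by -0.12 ± 0.32, and SERPINA6, the carrier of cortisol, by -0.02 ± 0.29 (SE in each case), all 3 being above background on all 6 arrays. SERPINA12 changed by 0.55 ± 0.67 (SE). SERPINA3 has 2 further probes that were not tested, 1 of them above background on no array. SERPINA4, SERPINA5, SERPINA9 and SERPINA10 were above background on 1 or 2 arrays and were not tested, and SERPINA7, SERPINA11 and SERPINA13P on none. Of the 5 hepatocyte markers, ALB, FGB and TTR were likewise above background on no array. The other 2, APOA1 and HP, were well above background on all 6 arrays and were not called.

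Other inhibitors and the proteases that these families act on were read from 9 lists of genes chosen with earlier results of these data known. Over the lists, 126 genes were tested, and 5 were called higher and 9 lower, 11.1% in all. Of all tested genes 3.70% were called higher and 3.37% lower. The number called depended on single arrays, and so did that of all tested probes. With all arrays, 14 genes of the lists and 1849 of all tested probes were called. Without empty-vector array 1, 2 or 3, the lists had 3, 5 and 11 calls, beside 407, 444 and 1323 among all tested probes. Without LOX-PP array 1, 2 or 3, they had 13, 8 and 9, beside 2062, 892 and 1037.

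The called metalloproteinases, the class of enzyme on which TIMPs act, were all lower. MMP10, or stromelysin 2, was lower at -3.96, MMP9, or gelatinase B, at -1.75 and the sheddase ADAM19 at -1.29 (limma adjusted p = 0.00225, 0.00731 and 0.0444), out of 28 tested metalloproteinases with a median relative change of -0.12. A dimmer probe of ADAM19 gave 0.10 (limma adjusted p = 0.738), so the probes of that gene disagree. Among 17 tested genes of plasminogen activation, coagulation and the receptors that clear inhibitor complexes, 2 were called, both lower. These were PLAU, the urokinase that SERPINE2 inhibits, at -1.32, and S100A10, a plasminogen receptor subunit, at -3.64 (limma adjusted p = 0.0431 and 0.00823), and the median of the list was -0.39. The other probe of PLAU gave -1.01 and was not called (limma adjusted p = 0.077).

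Among the 9 tested cysteine proteases, cathepsin F (CTSF) was higher by 1.83 and cathepsin C (CTSC) lower, at -1.40 (limma adjusted p = 0.018 and 0.016). Another probe of CTSC was called at -2.41, and the one left gave -1.23 and was not called. Of 28 tested serine proteases, PCSK6, a proprotein convertase, HTRA1 and the complement protease C1S were higher, by 3.13, 2.39 and 1.58 (limma adjusted p = 0.0118, 0.0116 and 0.034), and PRSS23 was lower, at -2.42 (limma adjusted p = 0.01). C1S is the target of SERPING1, whose own probes were not called.

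Complement C3, which belongs to the same protein superfamily as A2M, was the only called gene of 6 tested relatives. It rose by 4.31 (limma adjusted p = 0.0118), from -3.78, -3.90 and -1.68 on the empty-vector arrays to 1.68, 0.72 and 1.55 on the LOX-PP arrays. Its other probe rose by 3.66. No Kunitz-type inhibitor was called among 11 tested, and no further member of the cystatin superfamily among 7. FSTL1, a follistatin-like protein with a Kazal domain, was lower at -1.24 (limma adjusted p = 0.0396), the only call among 14 Kazal and WAP genes, and PI15, a trypsin inhibitor, was lower at -2.20 (limma adjusted p = 0.0145), the only one among the 6 remaining inhibitors.

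**Figure D4:**
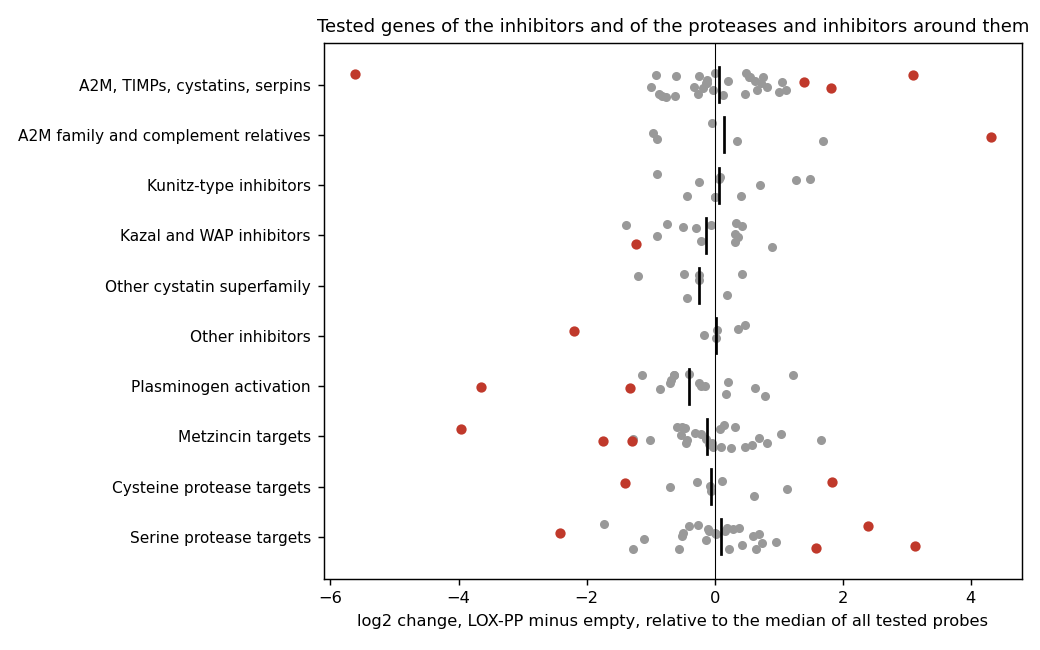
Relative log2 change of each tested gene, LOX-PP minus empty vector, for A2M, TIMPs, cystatins and serpins in the top line and for the 9 lists of other inhibitors and proteases below it. Red points are called genes, grey points are not, the black ticks are the medians of each line, and the vertical spread of points has no meaning. The called metalloproteinases and plasminogen activation genes lie on the lower side, down to MMP10 at -3.96, and C3 lies furthest to the higher side at 4.31.

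Markers of other cell types moved as well. Among 8 fibroblast markers, 7 lay below and 1 above the median of all probes, with a median relative change of -1.15. COL1A2, FBN1 and LUM were lower, at -3.04, -2.86 and -2.42. The log2 of the summed level of the list ranged from 6.39 to 6.41 on the empty-vector arrays and from 5.52 to 6.15 on the LOX-PP arrays. Among 6 epithelial markers 4 were tested, 2 lying above and 2 below the median of all probes, with a median relative change of 0.13. Of these KRT14 was called, at 5.13, and its dimmer tested probe gave 2.07 (limma adjusted p = 0.0527). EPCAM at 0.49, KRT18 at -0.23 and KRT19 at -1.01 were not called, CDH1 and KRT5 were above background on no array, and the summed level of the list ranged from 5.82 to 5.86 on the empty-vector and from 5.60 to 6.14 on the LOX-PP arrays. Of the 5 leukocyte markers 4 lay above and 1 below the median of all probes, with a median relative change of 0.22. ITGAM rose by 1.19, and the summed levels of the list ran from -0.69 to -0.33 and from -0.47 to 0.48. Of the 4 endothelial markers none was called, with 3 above and 1 below that median and a median relative change of 0.60. SERPINB3 and SERPINB5 are genes of squamous and other epithelia, and A2M is made by many cell types. The part of other cell types in these results was not tested.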

How the data were processed

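RNA from 3 A673/TR/empty and 3 A673/TR/LOX-PP samples had been labelled with Cy3 and hybridised to 6 Agilent 1-colour arrays, 1 per sample. The authors deposited spot intensity tables from Agilent Feature Extraction 10.7, which hold a background-corrected signal and flags for outliers and for spots well above background. The authors also deposited processed log2 values. These were matched to within 0.02 on 50528 of 50599 probes by taking the log2 corrected signal, subtracting each array's 75th percentile and centring every probe on its median. The other 71 lacked a value on at least 1 array here after outlier spots were removed. Their normalization is not given in the sources used here.

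Control and outlier spots (213 to 353 per array) were left out, the log2 signals of repeated spots were averaged, and each array's 75th percentile was subtracted. Where 3 or more of the 6 arrays showed a probe well above background it was tested (32647 probes) with limma 3.58.1 in R 4.3.3, without a block. Genes were named through accessions in a RefSeq table (GRCh38.p14). A gene with several probes was counted by the one with the highest mean signal. The number of arrays limits the precision, and no gene spot was saturated. The p-values set the difference between groups against the spread between the samples of a group. The labels call these replicates, and the study describes them as separate experiments.

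The genes and lists were chosen with earlier results of these data known. Inhibitor genes are named, those called and widely studied ones with the value on each array, apart from 1 gene that is not reported here, and from each other list at most the 5 called genes with the smallest adjusted p. No list was tested as a whole. Alternatives were quantile normalization, the processed values, normexp (offset 50, on the median spot signal), a common floor, other filters, the slide or the replicate number as a block, the methods' t-test, every probe of a gene and leaving out each array. On simulated arrays, 85 of 200 probes shifted by 2 and 139 of 200 shifted by 3 were recovered among 32586 probes, with 6 wrong calls each. The simulated noise was drawn independently for each probe and array, with no effect shared by an array or slide. The 6 wrong calls therefore do not give the number of false calls on the real arrays.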

Additional observations from a re-analysis of the deposited data

How the results depend on the processing

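The counts of calls depended on the settings. Of all tested probes 1849 were called, but 516 with no filter on dim probes, 860 with the replicate number as a block, 566 with the methods' t-test and, leaving out 1 array at a time, from 407 (without the first empty-vector array) to 2062 (without the first LOX-PP array). Of the 37 tested inhibitor probes 4 were called, but 2 under quantile normalization, normexp or a common floor. Of all 32647 tested probes, these settings called 1891, 1633 and 2041. The inhibitor count was also 2 with no filter, a filter on all 6 arrays or the replicate block. The filter on all 6 arrays called 1729 of all 24720 probes it tested. With the methods' t-test 1 inhibitor probe was called (SERPINB9). Before adjustment, 8 of the 37 had a t-test p under 0.05, beside 6430 of all 32647 tested probes. With 1 array left out, from 2 to 4 inhibitor probes were called. Of the genes of the other lists 14 were called, but 5 with no filter, 9 with the replicate block, 3 with the methods' t-test, 16 with quantile normalization or a common floor, 18 with a filter on all 6 arrays, and from 3 to 13 with 1 array left out. No change of an inhibitor that was called turned its direction. The processed values gave the same 4 calls, but they are nearly the values used here, centred by probe, and so are no separate check. With the slide as a block the first LOX-PP array, alone on its slide, carries no information, and the fit equals that without it.

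The median relative change of the 34 inhibitor genes was 0.07 and, with 1 array left out, ranged from -0.059 without the second empty-vector array to 0.358 without the third, and it was -0.11 with no filter. Same-numbered arrays of the groups correlated at 0.27, -0.39 and 0.23 in their deviations from the group means, so the numbers were not taken as pairs. Under the replicate block A2M and SERPINB9 were called (adjusted p = 0.032 and 0.0127) and SERPINB3 and SERPINB5 were not (0.0722 and 0.116). The filter decides which dim probes are tested, and for CST6, SERPINB3 and SERPINB5 the signal over background on single arrays limits what can be said. The cause of the lost calls was not tested.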
